A study of Mus with 96 samples.

Results

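The genes described here belong to the antioxidant response controlled by the transcription factor NRF2, measured in mouse liver. Members were the rows of the count table that carried 1 of 10 gene names: Nfe2l2, Keap1, Nqo1, Hmox1, Gclc, Gclm, Txnrd1, Srxn1, Gsta1 and Gsta4. All 10 were found, 1 row each, among 55487 genes in the table, and all 10 were among the 15548 genes that had at least 100 reads over all libraries and were tested. NRF2, encoded by Nfe2l2, is held in the cytoplasm and handed to degradation by KEAP1. Oxidants and reactive metabolites release it, and it then binds antioxidant response elements with small MAF proteins. Its targets make glutathione, reduce quinones, repair oxidised thiols and attach glutathione to electrophiles, and in liver they are known for their part in drug clearance and in protection from lipid peroxidation.

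Livers came from 96 mice of both sexes, aged 8 to 10 weeks, housed in 12 h of light and 12 h of dark. Hep-Bmal1KO mice (AlbCre/+/Bmal1flx/flx) carried a Cre driven by the albumin promoter, which acts in hepatocytes and leaves Bmal1 intact in other liver cells. Littermate controls, Hep-Bmal1WT (Alb+/+/Bmal1flx/flx), carried the same floxed alleles without Cre. Mice ate normal chow (NC, 14% fat) or cdHFD (a high-fat diet without choline, 60% fat and 2% cholesterol, with 0.17% methionine) for 2 weeks, a model of steatohepatitis, and were killed every 4 h from Zeitgeber time (ZT) 2, that is 2 h after lights on. Each combination of diet, genotype and ZT held 4 mice. Of the 24 mice in each diet and genotype group 12 were male and 12 female, except for cdHFD Hep-Bmal1WT, with 13 males and 11 females. RNA was read by bulk RNA barcoding and sequencing (BRB-seq), which counts the 3′ ends of transcripts, so levels are given as CPM, counts scaled to the size of the library, and were not compared between genes.

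Each library held between 1861740 and 9718615 reads on genes, with a median of 6412078.5. The 10 NRF2 genes had median counts between 153 (Nqo1) and 1791.5 (Gclm) per library, and the lowest count of any was 6 reads, for Gsta1. Arntl, the name of Bmal1 in the table, did not differ between genotypes on average over the day in edgeR's test. The log2 difference was 0.03 ± 0.25 on NC and -0.49 ± 0.20 on cdHFD (adjusted P = 0.972 and 0.106). Its spread over the livers was wider in Hep-Bmal1WT. The SD was 7.97 CPM on NC and 8.46 on cdHFD there, against 2.85 and 2.8 in Hep-Bmal1KO. Its level ran from 0.21 to 26.1 CPM in NC Hep-Bmal1WT, from 0.253 to 13 in NC Hep-Bmal1KO, from 0.256 to 23 in cdHFD Hep-Bmal1WT and from 1.89 to 12.3 in cdHFD Hep-Bmal1KO. Reads at the 3′ end need not show a deletion placed elsewhere in the gene. Other genes therefore served to check the labels. In 7 libraries (4 on NC, 3 on cdHFD) the 10 clock genes, and separately 20 other genes that differed between genotypes, both lay nearer the other genotype than the label. Another library, from cdHFD Hep-Bmal1KO at ZT10, was labelled female and had male Y-linked expression. Replicates are numbered in accession order. Those numbered 1 and 2 were males in 22 of 24 groups each and those numbered 3 and 4 were females in 21 and 22, so leaving out a replicate number also changes the balance of the sexes, and these effects cannot be told apart. Labels were kept, and values without these libraries are given where they bear on a result. Genotype and diet each filled their own plate columns, and each ZT filled its own block of wells within them. Plate position thus cannot be told apart from diet, genotype or ZT.

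On the GRCm38.p6 assembly, 3 of the members lie close together on chromosome 9: Gclc (77754535 to 77794489), Gsta4 (78191966 to 78209349) and Gsta1 (78230669 to 78242683). Keap1 is on the same chromosome (21229730 to 21239332). Nfe2l2 (75675513 to 75704663) and Srxn1 (152105524 to 152111376) are on chromosome 2. Hmox1 (75093618 to 75100593) and Nqo1 (107388225 to 107403205) are on chromosome 8. Gclm is on chromosome 3 (122245487 to 122267215) and Txnrd1 on chromosome 10 (82833951 to 82897724).

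The diet moved these genes in opposite directions. In Hep-Bmal1WT livers 6 of the 10 genes (Nfe2l2, Nqo1, Hmox1, Txnrd1, Srxn1, Gsta1) were higher on cdHFD, and the other 4 (Keap1, Gclc, Gclm, Gsta4) were lower. In Hep-Bmal1KO livers the same 6 genes rose and 2 of the 4, Keap1 and Gclm, fell. All 10 members passed the test in Hep-Bmal1WT, where 55.7% of all genes tested did, 28.4% upwards and 27.3% downwards. In Hep-Bmal1KO 8 passed, against 61.9% of all genes, 32.4% upwards and 29.6% downwards. No test compared these shares with those of the members. The median log2 fold change of the members was 0.55 in Hep-Bmal1WT and 0.53 in Hep-Bmal1KO, against 0.0086 and 0.023 over all genes, and since members went both ways it describes no single gene. In bulk liver RNA, fewer cells of a type and less RNA per cell cannot be told apart.

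Nfe2l2 itself rose less than 2-fold. In Hep-Bmal1WT livers its level ran from 36.2 to 83.8 CPM on NC (median 56.7) and from 60.5 to 155 CPM on cdHFD (median 101). The ranges overlapped, and 20 of 24 cdHFD livers were above every NC liver. The fold was 1.78 (log2 0.83 ± 0.09 SE, adjusted P = 9.756e-12), and in Hep-Bmal1KO it was 1.64 (log2 0.72 ± 0.08, adjusted P = 1.308e-11). Keap1, the adaptor that marks NRF2 for degradation, fell slightly, from a median of 47.7 CPM to 42.3 CPM in Hep-Bmal1WT and from 42.3 to 37.7 CPM in Hep-Bmal1KO. These falls were 0.21 ± 0.06 and 0.23 ± 0.05 below NC on the log2 scale, at folds of 0.863 and 0.851 (adjusted P = 0.001122 and 5.881e-05).

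Hmox1, which opens the heme ring and yields biliverdin, iron and carbon monoxide, rose several-fold in both genotypes. On NC it ran from 11.3 to 39.9 CPM (median 22) and on cdHFD from 14.1 to 184 CPM (median 100.0). A female at ZT18 gave the 14.1 CPM, and the other 23 cdHFD livers were all above the highest NC liver. In Hep-Bmal1KO the ranges did not overlap at all, at 8.08 to 39.7 CPM on NC and 64.7 to 197 CPM on cdHFD. The fold was 4.44 in Hep-Bmal1WT (log2 2.15 ± 0.15, adjusted P = 1.94e-17) and 5.63 in Hep-Bmal1KO (log2 2.49 ± 0.13, adjusted P = 2.101e-22).

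Macrophages also express Hmox1, and their markers moved with the diet. All 7 markers of recruited macrophages and monocytes and all 6 of Kupffer cells, the resident macrophages of the liver, rose on cdHFD in both genotypes. The summed level of the 7 markers was 132 to 347 CPM on NC and 703 to 1670 CPM on cdHFD in Hep-Bmal1WT, and 123 to 378 CPM and 1180 to 2430 CPM in Hep-Bmal1KO. The Kupffer cell sum went from 113 to 278 CPM on NC to 444 to 1170 CPM on cdHFD in Hep-Bmal1WT. All 5 hepatocyte markers fell in both genotypes, and none of the markers in either list was at 0 throughout a group. The part of these markers in the rise of Hmox1 was not tested.

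Srxn1, which reduces over-oxidised peroxiredoxins, separated the diets completely. It ran from 16.1 to 71.9 CPM on NC and from 81.5 to 395 CPM on cdHFD in Hep-Bmal1WT, and from 26.6 to 67.4 CPM and 85.4 to 541 CPM in Hep-Bmal1KO. Every cdHFD liver was above every NC liver of its genotype. The folds were 3.81 (log2 1.93 ± 0.14, adjusted P = 1.046e-16) and 3.66 (log2 1.87 ± 0.12, adjusted P = 8.283e-19). Txnrd1, the thioredoxin reductase of the cytosol, rose far less. Its median went from 96 to 121 CPM in Hep-Bmal1WT and from 90.9 to 119 CPM in Hep-Bmal1KO, with wide overlap. The folds were 1.21 and 1.27 (log2 0.28 ± 0.09 and 0.34 ± 0.06, adjusted P = 0.007755 and 9.262e-07). The Txnrd1 call in Hep-Bmal1WT was lost without replicate 3 of every group (log2 0.23, adjusted P = 0.0601, the highest of 13 alternatives, the lowest being 0.000797).

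Nqo1, a quinone reductase often used as a reporter of NRF2 activity, about doubled. It ran from 5.45 to 28.4 CPM on NC (median 16.7) and from 17.5 to 54 CPM on cdHFD (median 33) in Hep-Bmal1WT. In Hep-Bmal1KO it ran from 7.85 to 30.1 CPM and from 16.1 to 70.5 CPM. All 24 cdHFD livers of either genotype were above the NC median, and 17 in Hep-Bmal1WT and 10 in Hep-Bmal1KO were above every NC liver. The folds were 2.04 (log2 1.03 ± 0.11, adjusted P = 1.216e-11) and 1.85 (log2 0.89 ± 0.14, adjusted P = 4.521e-07).

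Gclc and Gclm, the catalytic and modifier subunits of the enzyme that limits glutathione synthesis, did not follow Nqo1. Gclm had a median of 349 CPM on NC and 281 CPM on cdHFD in Hep-Bmal1WT, and of 299 and 228 CPM in Hep-Bmal1KO. Its mean was lower on cdHFD at every ZT in both genotypes. The folds were 0.784 and 0.756 (log2 -0.35 ± 0.07 and -0.40 ± 0.06, adjusted P = 1.339e-05 and 1.479e-08). Gclc was lower in Hep-Bmal1WT (fold 0.835, log2 -0.26 ± 0.10, adjusted P = 0.02002) and did not pass in Hep-Bmal1KO (log2 -0.25 ± 0.12, adjusted P = 0.0652). Its cdHFD mean was above the NC mean at 3 of 6 ZTs in each genotype, so an average over the day describes it poorly and its rhythm is given below. The Gclc call in Hep-Bmal1WT was lost without replicate 1 or replicate 2 of every group (adjusted P = 0.157 and 0.191, with a range over 13 alternatives of 0.00337 to 0.675).

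Gsta1 and Gsta4 encode glutathione S-transferases of the alpha class, and Gsta4 is known for clearing 4-hydroxynonenal, a product of lipid peroxidation. They went opposite ways on cdHFD. Gsta1 ran from 1.34 to 114 CPM on NC and from 25.9 to 159 CPM on cdHFD in Hep-Bmal1WT, and from 0.951 to 26.8 CPM and 22.3 to 146 CPM in Hep-Bmal1KO. Its folds were 3.34 (log2 1.74 ± 0.35, adjusted P = 3.349e-05) and 8.4 (log2 3.07 ± 0.25, adjusted P = 2.374e-15). Gsta4 fell from a median of 113 to 88.8 CPM in Hep-Bmal1WT (fold 0.718, log2 -0.48 ± 0.11, adjusted P = 0.0001872). In Hep-Bmal1KO, where it started lower, its medians were 61.4 and 53.5 CPM (log2 -0.22 ± 0.12, adjusted P = 0.1002).

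Among females alone the 4 falls in Hep-Bmal1WT were not called: log2 -0.16 for Keap1, -0.08 for Gclc, -0.07 for Gclm and -0.12 for Gsta4 (adjusted P = 0.134, 0.675, 0.494 and 0.537). The 6 rises kept their call in either sex, but that of Gsta1 differed widely in size. It was log2 1.17 in males and 3.44 in females (adjusted P = 0.000243 and 2.23e-07, with a range over 13 alternatives of 9.54e-08 to 0.000996). The NC medians beside it were 49.3 CPM in males and 3.28 CPM in females. In Hep-Bmal1KO the females alone did not lose calls, with 9 members called against 8 in both sexes together. The falls of Keap1 and Gclm in Hep-Bmal1KO kept their call in all 13 alternatives, females alone among them. Their log2 fold changes ran from -0.245 to -0.184 and from -0.427 to -0.355.

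**Figure D1:**
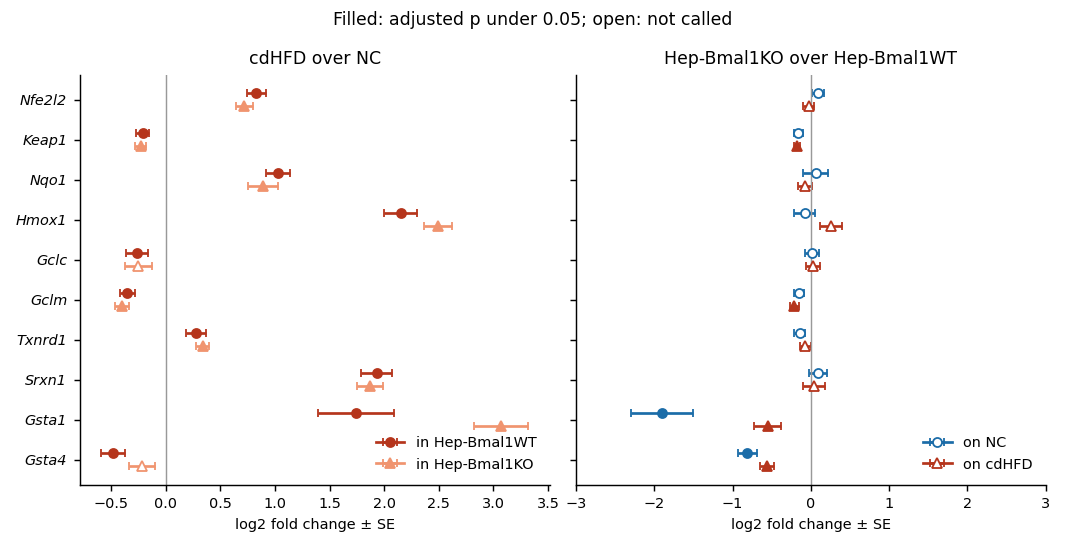
Log2 fold change ± SE of the 10 genes for cdHFD over NC in each genotype (left, 48 livers per fit) and for Hep-Bmal1KO over Hep-Bmal1WT on each diet (right, 48 livers per fit). Hmox1, Srxn1, Gsta1, Nqo1 and Nfe2l2 sit right of 0 in the left panel, Keap1, Gclc, Gclm and Gsta4 left of it, and in the right panel Gsta1 and Gsta4 lie farthest from 0.

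The comparison of genotypes asked whether loss of the hepatocyte clock moves the same genes. Nfe2l2, Nqo1, Srxn1, Hmox1, Txnrd1 and Gclc did not pass the test between genotypes on either diet. The log2 difference, Hep-Bmal1KO minus Hep-Bmal1WT, was 0.06 ± 0.16 for Nqo1 on NC and -0.08 ± 0.09 on cdHFD. For Nfe2l2 it was 0.09 ± 0.08 and -0.03 ± 0.07, and for Srxn1 0.09 ± 0.11 and 0.04 ± 0.14. In NC females alone Nfe2l2 was higher in Hep-Bmal1KO (log2 0.31, adjusted P = 0.042). Hmox1 was at -0.08 ± 0.13 on NC and 0.26 ± 0.14 on cdHFD (adjusted P = 0.791 and 0.2479), beside 5 of 7 markers of recruited macrophages and monocytes that were higher in Hep-Bmal1KO on cdHFD. Of the 6 Kupffer cell markers 0 were higher there and 1 was lower.

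The glutathione S-transferase pair was lower in Hep-Bmal1KO on both diets, and Keap1 and Gclm were lower on cdHFD. On NC 2 of 10 genes were called, Gsta1 and Gsta4, both lower in Hep-Bmal1KO. Of all genes tested 12.5% were called there and 5.45% were lower. On cdHFD 4 of 10 were called, Gsta1, Gsta4, Keap1 and Gclm, again all lower, against 9.67% of all genes called and 4.92% lower. Without the 7 libraries that lay nearer the other genotype, the same 4 genes were called on both diets. Calls over all genes rose there too, from 1948 to 2649 of 15548 on NC and from 1503 to 2024 on cdHFD. Cell type markers moved alongside. Of 5 hepatocyte markers 2 were lower in Hep-Bmal1KO on NC, Alb (log2 -0.83 ± 0.15) and Hnf4a (-0.29 ± 0.06), and 3 on cdHFD, where 4 of 6 stellate cell markers and 5 of 7 of recruited macrophages and monocytes were higher. The summed hepatocyte level was 90200 to 206000 CPM in Hep-Bmal1WT and 76300 to 209000 CPM in Hep-Bmal1KO on NC, and 53200 to 90000 and 47500 to 83100 CPM on cdHFD, and no hepatocyte marker was at 0 throughout a group. The stellate sum on cdHFD was 199 to 523 CPM in Hep-Bmal1WT and 150 to 903 CPM in Hep-Bmal1KO. The part of these markers in the genotype differences was not tested.

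Gsta4 on NC ran from 64.9 to 183 CPM in Hep-Bmal1WT (median 113) and from 45.1 to 129 CPM in Hep-Bmal1KO (median 61.4). Of the 24 Hep-Bmal1KO livers 14 were below every Hep-Bmal1WT liver, and the mean was lower at all 6 ZTs. The fold was 0.571 (log2 -0.81 ± 0.12, adjusted P = 4.486e-06), and on cdHFD it was 0.679 (log2 -0.56 ± 0.09, adjusted P = 3.997e-05).

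Gsta1 on NC had a median of 13.5 CPM in Hep-Bmal1WT and 5.79 CPM in Hep-Bmal1KO, and 22 of the 24 Hep-Bmal1KO livers were below the Hep-Bmal1WT median. The fold was 0.269 (log2 -1.90 ± 0.40, adjusted P = 0.0006363). Males and females are given apart here because the sexes differed in this gene. In males the level ran from 6.2 to 114 CPM in Hep-Bmal1WT (median 49.3, n = 12) and from 2.32 to 15.5 CPM in Hep-Bmal1KO (median 7.75, n = 12). In females the medians were 3.28 and 4 CPM, and both genotypes spanned a wide range, 1.34 to 54.4 CPM and 0.951 to 26.8 CPM. Fitted by sex, the log2 difference was -2.55 in males (adjusted P = 7.3e-07) and -0.05 in females (adjusted P = 0.975). Gsta4 went the same way, at -1.24 in males and -0.34 in females (adjusted P = 1.59e-08 and 0.191). Whether the genotype difference itself differs between the sexes was not tested. The NC libraries nearer the other genotype were kept in both fits by sex and were mostly female. They were a Hep-Bmal1WT male at ZT6, a Hep-Bmal1WT female at ZT18, and Hep-Bmal1KO females at ZT6 and ZT10. No fit by sex was run without them, so their part in the differences within each sex was not tested. Without replicate 2 of every group the pooled Gsta1 difference was -1.33 (adjusted P = 0.068, with a range over 13 alternatives of 7.3e-07 to 0.975).

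On cdHFD Gsta1 was again lower in Hep-Bmal1KO. Means were 88.2 ± 32.1 CPM in Hep-Bmal1WT and 60.4 ± 34.6 CPM in Hep-Bmal1KO (SD, n = 24 each), at a fold of 0.681 (log2 -0.55 ± 0.17, adjusted P = 0.02331). By sex the log2 difference was -0.49 in males and -0.68 in females. The pooled call was lost without replicate 1, 2 or 4, in males alone and in a joint fit of all libraries, with adjusted P between 0.00207 and 0.257 over 13 alternatives. Keap1 differed by -0.18 ± 0.04 and Gclm by -0.21 ± 0.06 on the log2 scale (adjusted P = 0.004167 and 0.02755). Both had log2 differences of like size on NC, -0.16 ± 0.06 and -0.15 ± 0.06, that did not pass (adjusted P = 0.06126 and 0.106). Keap1 passed on NC with DESeq2, with the stricter filter on low counts, in a joint fit of all libraries, without replicate 4 and without the 7 libraries (adjusted P = 0.0455, 0.0405, 0.0186, 0.0411 and 0.0028, with a range over 13 alternatives of 0.0028 to 0.626). On cdHFD the Keap1 call was lost without replicate 3 and within each sex, and the Gclm call without replicate 1 or 2 and in males.

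Whether the genotype difference depended on diet was tested as the interaction. None of the 10 genes passed, against 3.04% of all genes, with edgeR's quasi-likelihood test, and Gsta1 was the only member with an unadjusted P under 0.05 (log2 1.35 ± 0.42, n = 96, P = 0.001877, adjusted P = 0.0563). DESeq2 called 1 member, Gsta1. Its adjusted P was 0.0237 without the 7 libraries nearer the other genotype, and ran from 0.000203 to 0.673 over 12 alternatives. With the 7 libraries kept, its direction turned between the sexes, at log2 2.07 in males (adjusted P = 0.000203) and -0.56 in females (adjusted P = 0.673).

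Gsta2 and Gsta3, relatives of Gsta1 that are not members, bear on how its counts can be read. Reads from 3′ ends that match several copies can be counted for another copy or left uncounted. The Gsta1 values are uncertain to that extent. Gsta2 ran the other way on cdHFD in Hep-Bmal1WT (log2 -0.59 ± 0.15, adjusted P = 0.000624), and so did Gsta3 (log2 -1.08 ± 0.07, adjusted P = 4.23e-18). Both were lower in Hep-Bmal1KO on NC, by a log2 difference of -1.11 ± 0.20 for Gsta2 and -0.31 ± 0.08 for Gsta3 (adjusted P = 0.000116 and 0.00736).

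Male and female livers differed in 5 of the 10 genes on NC, against 18.5% of all genes, and in 4 on cdHFD, against 5.8%. On NC Nqo1 and Hmox1 were lower in males, and Txnrd1, Srxn1 and Gsta1 were higher. On cdHFD Txnrd1, Srxn1 and Gsta1 were again higher in males and Nfe2l2 was lower. For Nqo1 and Hmox1 the sex difference depended on diet, the only 2 members for which it did in a test that 7.91% of all genes passed.

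Nqo1 on NC ran from 5.45 to 28.4 CPM in males (median 11.2, n = 24) and from 9.62 to 30.1 CPM in females (median 20, n = 24). On cdHFD the medians were 30 CPM in males (n = 25) and 31.8 CPM in females (n = 23). The log2 difference, male minus female, was -0.70 ± 0.13 on NC (adjusted P = 4.917e-05) and -0.08 ± 0.09 on cdHFD (adjusted P = 0.708), and the difference between diets was 0.61 ± 0.16 (adjusted P = 0.006273). It was lost without replicate 2 or replicate 4 of every group (adjusted P = 0.0542 and 0.282, with a range over 10 alternatives of 6.54e-07 to 0.282).

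Hmox1 had a median of 19.5 CPM in NC males and 28.2 CPM in NC females, and of 132 and 108 CPM on cdHFD. The sexes thus stood in the opposite order on the 2 diets, at log2 -0.41 ± 0.12 on NC (adjusted P = 0.01341) and 0.32 ± 0.13 on cdHFD (adjusted P = 0.1772). The difference between diets was 0.74 ± 0.19 (adjusted P = 0.007827), and was lost without replicate 2 or replicate 3 (adjusted P = 0.249 and 0.0646, with a range over 10 alternatives of 3.77e-13 to 0.249). Kupffer cell markers moved alongside. All 6 were lower in males on NC and none was called on cdHFD, and 5 of the 6 passed the test of sex by diet. Their summed level on NC was 95.6 to 292 CPM in males and 173 to 310 CPM in females, and on cdHFD 563 to 1100 and 444 to 1170 CPM. All 5 liver endothelial markers were lower in NC males too, with sums of 72.3 to 180 CPM in males and 85.8 to 223 CPM in females. Their part in the sex differences was not tested.

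Srxn1 stood higher in males on both diets. On cdHFD it ran from 102 to 541 CPM in males and from 81.5 to 178 CPM in females, with log2 differences of 0.37 ± 0.10 on NC and 0.62 ± 0.09 on cdHFD (adjusted P = 0.005155 and 4.963e-06). Txnrd1 followed at 0.23 ± 0.06 and 0.28 ± 0.06 (adjusted P = 0.003987 and 0.001884). Gsta1 was higher in males by 1.54 ± 0.36 on NC and 0.55 ± 0.15 on cdHFD (adjusted P = 0.001149 and 0.01284). Nfe2l2 did not differ on NC (log2 -0.03 ± 0.08) and was lower in males on cdHFD, with medians of 95.7 and 107 CPM (log2 -0.27 ± 0.06, adjusted P = 0.001142). On cdHFD the transcription factor and its targets Srxn1 and Txnrd1 thus differed between the sexes in opposite directions. Several of these calls were lost when a replicate number, and with it livers mostly of 1 sex, was left out. On NC that of Hmox1 was lost without replicate 2, 3 or 4, those of Srxn1 and Gsta1 without replicate 3 and that of Txnrd1 without replicate 2. On cdHFD that of Gsta1 was lost without replicate 1, 2 or 3, that of Txnrd1 without replicate 3 and that of Nfe2l2 without replicate 4. Without the 7 libraries nearer the other genotype, Gclm and Gsta1 also passed the test of sex by diet (log2 -0.27 and -1.50, adjusted P = 0.0262 and 0.0012).

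**Figure D2:**
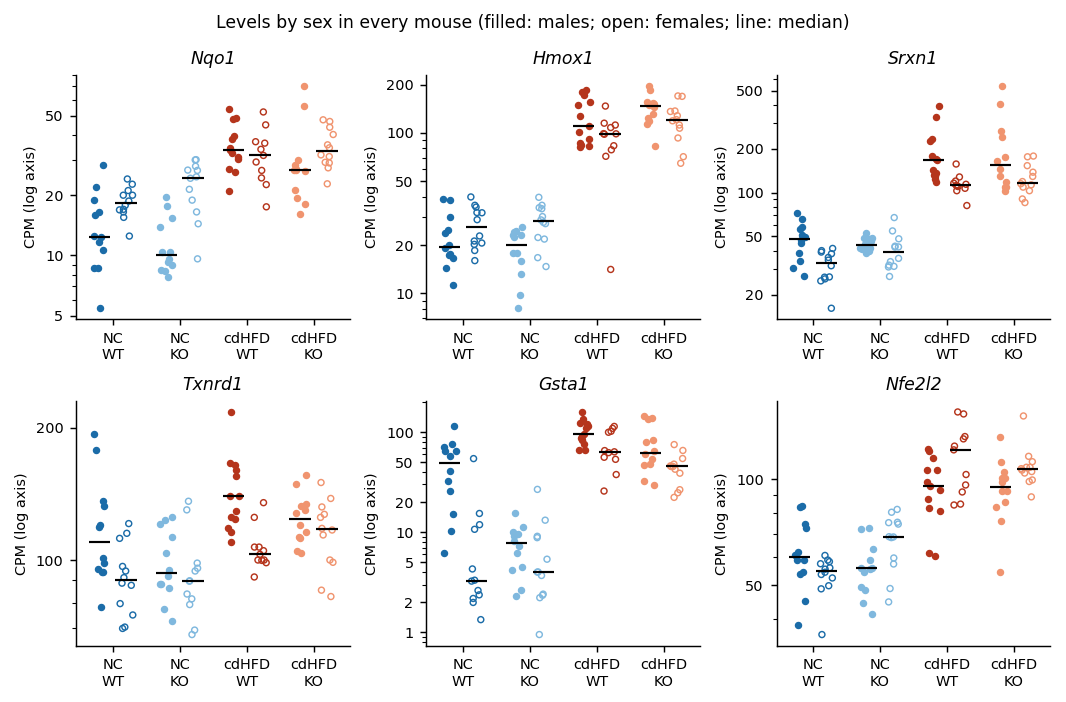
CPM of 6 genes in every liver on a log axis, by diet and genotype, with males filled, females open and the median as a line. The male median lies below the female median for Nqo1 on NC and above it for Srxn1 on cdHFD, with overlapping points, and Gsta1 in NC Hep-Bmal1WT males has the highest median on NC (49.3 CPM).

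Rhythms over the day were tested in each group of 24 livers with a cosine and a sine of 24 h, and called where the unadjusted P was below 0.01, the cut-off of the study. The study pooled genes that passed it by at least 1 of CircaN, JTK, Metacycle and DryR. Calls here rest on a single other test, so their counts are not those of the study. On NC, Gclc and Txnrd1 were rhythmic in Hep-Bmal1WT and Gclc alone in Hep-Bmal1KO. On cdHFD, Nqo1, Gclc, Srxn1 and Gsta1 were rhythmic in Hep-Bmal1WT, and Nqo1, Gclc and Srxn1 in Hep-Bmal1KO. Thus 2, 1, 4 and 3 of the 10 genes were called, against 19.1%, 9.02%, 16.1% and 8.48% of all genes. At an adjusted P under 0.05 the counts were 1, 1, 4 and 3, against 18.7%, 4.35%, 14.3% and 3.81%, and Txnrd1 was the member lost (adjusted P = 0.05105, 0.00821 to 0.503 over 12 alternatives). Its call at the unadjusted threshold was lost in 8 of these, among them without replicate 1, 2 or 3. Nfe2l2, Keap1, Hmox1, Gclm and Gsta4 were called in no group. For Nfe2l2 in cdHFD Hep-Bmal1WT (n = 24) the unadjusted P was 0.01021, just outside the threshold, and it lay inside with sex as a covariate (P = 0.00159).

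Gclc was rhythmic in all 4 groups, and its peak moved with the diet. In NC Hep-Bmal1WT livers the mean was highest at ZT6, where the 4 livers had 287, 310, 356 and 392 CPM, and low at ZT22, with 199, 199, 206 and 208 CPM. On cdHFD the order turned over. The 4 livers at ZT6 had 130, 149, 201 and 206 CPM, and those at ZT18 had 212, 238, 261 and 272 CPM. At ZT6 every cdHFD liver was thus below every NC liver, in the middle of the light phase.

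Fitted peaks put numbers on this shift. In Hep-Bmal1WT the peak (phase, with the level on a variance-stabilised log2 scale) lay at ZT 6.37 ± 0.90 on NC and 16.8 ± 1.1 on cdHFD, with amplitudes of 0.38 and 0.27. The shift was 10.4 h later (n = 48, P = 3.291e-10), and 9.77 to 11 h when each replicate number was left out in turn. In Hep-Bmal1KO the peak lay at ZT 8.03 ± 0.92 on NC and 23.4 ± 0.8 on cdHFD, a difference of -8.65 h the shorter way round the day (n = 48, P = 1.009e-07). Among genes rhythmic on both diets, phase differed at an unadjusted P below 0.05 in 47% in Hep-Bmal1WT and 43.2% in Hep-Bmal1KO, so a moved peak was common on this diet. The test of the whole rhythm also called Gclc between diets, the only member in either genotype (adjusted P = 0.0004359 in Hep-Bmal1WT, where 6.13% of all genes were called, and 0.01105 in Hep-Bmal1KO, where 0.907% were). In Hep-Bmal1KO this call was lost without replicate 1, 2 or 4 (adjusted P = 0.0719, 0.0935 and 0.0745) and in females alone (0.212).

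The Gclc peaks of the genotypes differed on cdHFD and did not pass the test on NC. The phase difference was 1.66 h on NC (n = 48, P = 0.2039) and 6.59 h on cdHFD, Hep-Bmal1KO later (n = 48, P = 1.56e-05, adjusted P = 0.00275). At ZT2 on cdHFD, Hep-Bmal1WT livers had 145, 157, 171 and 236 CPM. Hep-Bmal1KO livers had 212, 223, 445 and 457 CPM, the higher pair from males and the lower pair from females. For the whole rhythm Gclc was the only member called between genotypes on cdHFD (adjusted P = 0.01661), where 0.431% of all genes were. No member was called on NC, against 0.386%, and none had an unadjusted P under 0.05 there. The cdHFD call of the whole rhythm was lost in 7 of 11 alternatives, among them each left-out replicate number and each sex alone (adjusted P from 0.00449 to 0.697). The phase difference lay between 6.29 and 6.8 h in the 6 alternatives run for it, none of which fitted 1 sex alone.

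Nqo1 and Srxn1 peaked in the light phase on cdHFD, where their levels were high. In cdHFD Hep-Bmal1WT livers Nqo1 went from 33.9, 44.9, 48.2 and 54 CPM at ZT6 to 17.5, 21, 24.4 and 27.1 CPM at ZT22, with no overlap. Its peak lay at ZT 7.67 ± 0.96 in Hep-Bmal1WT and 4.68 ± 0.92 in Hep-Bmal1KO, with amplitudes of 0.38 and 0.40. Srxn1 in cdHFD Hep-Bmal1KO livers had 109, 153, 406 and 541 CPM at ZT2, again with males as the higher pair, and 85.4, 90.4, 102 and 110 CPM at ZT14. Its peak lay at ZT 4.80 ± 1.32 in Hep-Bmal1WT and 1.24 ± 0.79 in Hep-Bmal1KO, with amplitudes of 0.39 and 0.64.

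Both genes peaked earlier in Hep-Bmal1KO, by 2.99 h for Nqo1 (phase difference -2.99 h, n = 48, P = 0.02982) and 3.56 h for Srxn1 (-3.56 h, P = 0.02594), opposite to Gclc. These passed an unadjusted threshold of 0.05, as did 14.2% of all genes rhythmic in both genotypes on cdHFD (13.3% on NC), and not after adjustment (adjusted P = 0.3084 and 0.2858). The unadjusted P of Nqo1 was above 0.05 without replicate 2, 3 or 4, and that of Srxn1 without replicate 1, 2 or 4. The amplitude of Srxn1 in Hep-Bmal1KO was larger on cdHFD than on NC, 0.64 against 0.19 (n = 48, P = 0.004739), and this did not pass after adjustment over all genes (adjusted P = 0.7242). Gsta1 in cdHFD Hep-Bmal1WT livers peaked at ZT 14.7 ± 1.5, in the dark phase, and its mean ran from 67.8 CPM at ZT2 to 129 CPM at ZT14. It was not called there by a cosinor test on variance-stabilised values (n = 24, P = 0.0151), and neither was Srxn1 (P = 0.0294). Leaving out replicate numbers ended the call in cdHFD Hep-Bmal1WT for Gsta1 (1 or 2), Srxn1 (2 or 4) and Gclc (4), and on NC for Gclc in Hep-Bmal1WT (1) and Hep-Bmal1KO (2).

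**Figure D3:**
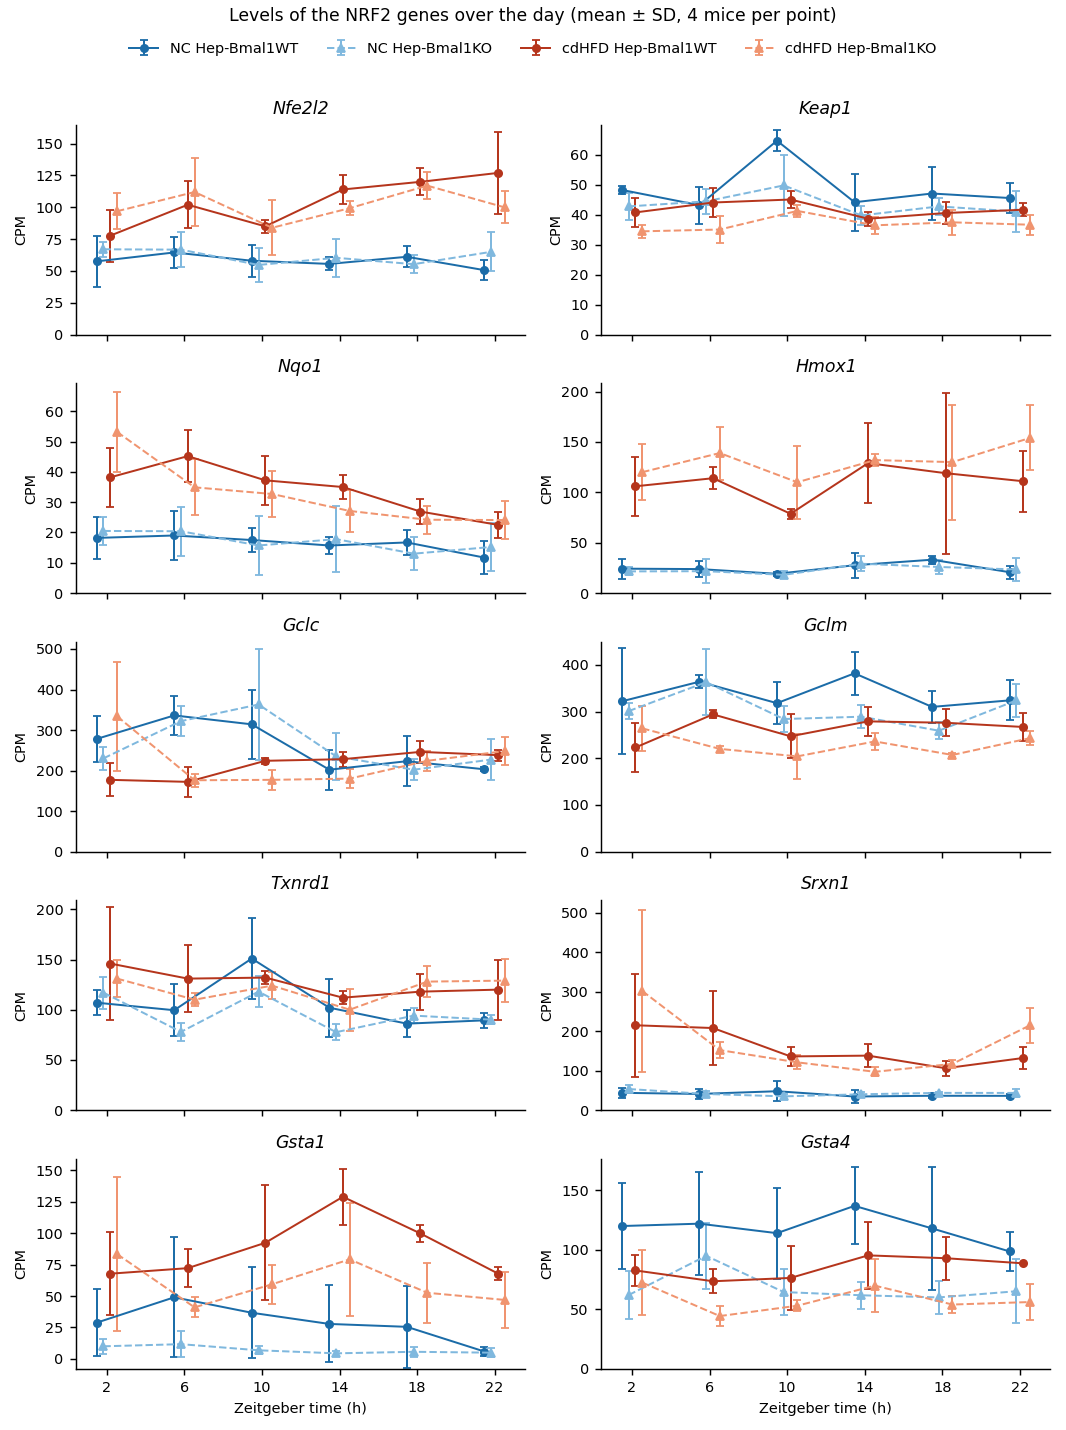
Mean CPM ± SD (4 livers per point) of each gene against Zeitgeber time in the 4 groups, NC in blue and cdHFD in red, Hep-Bmal1WT as circles with solid lines and Hep-Bmal1KO as triangles with dashed lines. The Gclc curves cross between diets, and on cdHFD the Srxn1 curves are highest at ZT2 and the Nqo1 curves at ZT6 in Hep-Bmal1WT and ZT2 in Hep-Bmal1KO.

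**Figure D4:**
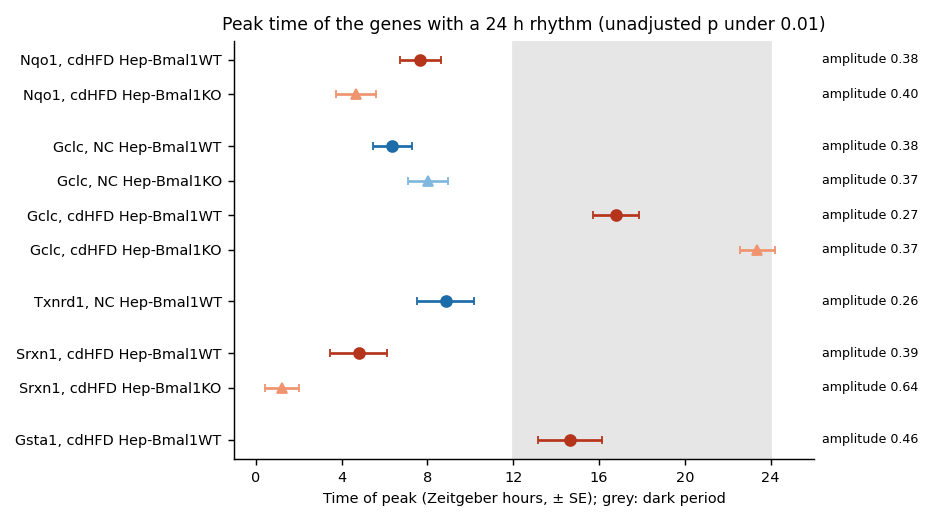
Time of peak ± SE in Zeitgeber hours for each gene and group with a 24 h rhythm (unadjusted P below 0.01), with the fitted amplitude on the variance-stabilised log2 scale at the right and the dark period in grey. Gclc peaks in the light phase on NC and in the dark phase on cdHFD, while Nqo1 and Srxn1 peak in the light phase.

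Livers of the same group were then compared with each other, to see whether members rose and fell together from mouse to mouse. The log2 CPM of each gene was taken relative to its mean in the mouse's own diet, genotype and ZT group. Over the 96 livers, none of the 9 other members correlated with Nqo1 after adjustment over the 9 relations by a permutation test. Pearson's r was largest for Gsta4 (0.27, Spearman's rho 0.25, permutation P = 0.0194 and 0.032, adjusted P = 0.166 and 0.144), Nfe2l2 (0.24, rho 0.24, permutation P = 0.0771 and 0.0509, adjusted P = 0.231 and 0.153) and Hmox1 (0.22, rho 0.25, permutation P = 0.0369 and 0.0317, adjusted P = 0.166 and 0.144). For Srxn1 r was -0.01 and for Txnrd1 -0.13. Within NC r was 0.39 for Hmox1 and 0.36 for Nfe2l2, and within cdHFD -0.03 and -0.02 (none called in either diet). Leaving out the 2 livers farthest from the Nqo1 median gave 0.33 for Gsta4, 0.35 for Nfe2l2 and 0.30 for Hmox1, each at an adjusted permutation P of 0.0178.

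Sex stayed in these values. With each liver taken relative to its own sex in the group, over 95 livers that were not alone of their sex, r was 0.30 for Srxn1, 0.29 for Gsta1 and 0.29 for Gsta4 (permutation P = 0.0225, 0.12 and 0.0823, adjusted P = 0.202, 0.36 and 0.36) and 0.01 for Hmox1 (permutation P = 0.901, adjusted P = 0.984), and none was called.

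Of the 45 pairs among the 10 genes, 3 had an r above 0.5: Gsta1 with Gsta4 (0.71), Txnrd1 with Srxn1 (0.71) and Gclc with Srxn1 (0.57). The median was 0.16 and 15 pairs were below 0, the lowest being Nfe2l2 with Txnrd1 (-0.27). These values are descriptions over 96 livers that share plate, depth scaling, group means and sex differences. The 7 libraries nearer the other genotype were kept in them, and only the pairs with Nqo1 were also computed without those libraries. Relative to the own sex, Gsta1 with Gsta4 was at 0.80, Txnrd1 with Srxn1 at 0.36 and Gclc with Srxn1 at 0.30, so that 1 pair was above 0.5. The 5 genes outside the list whose log2 CPM followed Nqo1 most closely over all 96 livers, with diet and genotype differences left in, were Cd36 (r = 0.802), Nagk (0.761), Ccnd1 (0.76), Acot2 (0.741) and Tceal8 (0.74). Cd36 encodes a fatty acid transporter and Acot2 a mitochondrial acyl-CoA thioesterase, and the log2 fold change of the 5 on cdHFD ran from 0.83 (Tceal8) to 2.79 (Acot2) in Hep-Bmal1WT.

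The wider NRF2 pathway also held genes that rose and genes that fell. Of 51 further pathway genes, all tested, 20 rose and 19 fell on cdHFD in Hep-Bmal1WT, and 15 rose and 23 fell in Hep-Bmal1KO. Over all genes 28.4% rose and 27.3% fell in Hep-Bmal1WT, and 32.4% and 29.6% in Hep-Bmal1KO, and the counts of the lists that follow stand beside these shares with no test between them. All 5 hepatocyte markers fell on the same diet, by log2 fold changes from -0.81 (Hnf4a) to -1.33 (Serpina1a) in Hep-Bmal1WT, and their part in the falls was not tested. The median log2 fold change of the 51 was -0.08 and -0.10, against 0.0086 and 0.023 over all genes. Between genotypes 6 were higher and 12 lower in Hep-Bmal1KO on NC, and 2 higher and 10 lower on cdHFD. Over all genes 12.5% were called on NC, 5.45% lower, and 9.67% on cdHFD, 4.92% lower, again with no test between them.

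Among 10 controllers and partners of NRF2, 4 rose and 2 fell in each genotype. Among those called, the largest changes in Hep-Bmal1WT were in Maff and Mafk, which encode small MAF proteins that pair with NRF2. Maff rose by a log2 fold change of 1.29 ± 0.19 in Hep-Bmal1WT and 2.37 ± 0.27 in Hep-Bmal1KO, and was lower in Hep-Bmal1KO on NC (log2 -1.41 ± 0.31, adjusted P = 0.000911), with an interaction of genotype and diet (log2 1.05 ± 0.30, adjusted P = 0.0367). Mafk rose by 0.91 ± 0.10 and 1.18 ± 0.10. Sqstm1, the autophagy receptor that can sequester KEAP1, rose by 0.63 ± 0.09 and 0.79 ± 0.10.

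Of 5 genes of glutathione supply and recycling 3 rose in each genotype, Slc7a11, Gss and Gpx2. None fell in Hep-Bmal1WT, and 1 fell in Hep-Bmal1KO, Ggct (log2 -0.27, adjusted P = 0.04793), which is named here after its values were seen. Slc7a11, the cystine importer, had 8 reads in all over the 24 NC Hep-Bmal1WT livers, 21 of them at 0, and 429 reads over the 24 cdHFD livers, none at 0. Its level ran from 0 to 0.779 CPM and from 0.259 to 6.86 CPM. Gss, glutathione synthetase, went from a median of 79.9 to 122 CPM (log2 0.58 ± 0.07, adjusted P = 3.88e-10). Gpx2, a glutathione peroxidase, had a median of 0.105 CPM on NC and 1.99 CPM on cdHFD (log2 2.92 ± 0.45).

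Of 4 thioredoxin and peroxiredoxin partners 3 fell in Hep-Bmal1WT and all 4 in Hep-Bmal1KO, among them Txnrd3 (log2 -1.01 ± 0.15), Prdx6 (-0.47 ± 0.06) and Prdx1 (-0.20 ± 0.05) in Hep-Bmal1WT. NADPH-making enzymes split, with 2 up and 3 down of 6 in Hep-Bmal1WT. G6pdx, the entry to the pentose phosphate pathway, rose by 1.12 ± 0.12, while malic enzyme Me1 and isocitrate dehydrogenase Idh1 had log2 fold changes of -1.65 ± 0.10 and -1.10 ± 0.05.

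Conjugation, reduction and export held 18 genes, of which 7 rose and 9 fell in Hep-Bmal1WT. The carbonyl reductase Cbr3 rose by 2.93 ± 0.32, from a median of 1.33 to 13.8 CPM, and the exporter Abcc1 by 2.08 ± 0.17, from 1.17 to 6.2 CPM. The glucuronosyltransferase Ugt1a6a, with a median of 1.07 CPM on NC, had a log2 fold change of -1.51 ± 0.33. Among 5 genes of heme and iron handling, which act beside Hmox1, 3 rose and 1 fell: the heme transporter Slc48a1 (0.57 ± 0.08), biliverdin reductase Blvra (0.38 ± 0.06) and the ferritin heavy chain Fth1 (0.22 ± 0.05) were the risers. In Hep-Bmal1KO 2 of the 5 rose, and Fth1 was at 0.01 ± 0.05.

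Of 3 other NRF2-induced genes, Htatip2 rose (0.41 ± 0.09) and Cyp2a5, a coumarin hydroxylase, fell (-0.94 ± 0.29, adjusted P = 0.00472). Cyp2a5 was also lower in Hep-Bmal1KO, with medians of 832 and 200 CPM on NC and 610 and 50.5 CPM on cdHFD (adjusted P = 2.99e-06 and 3.37e-09). Of 10 antioxidant enzymes outside the NRF2 list 7 fell and 3 rose in Hep-Bmal1WT, and 7 fell and 1 rose in Hep-Bmal1KO. Catalase (Cat) went from a median of 3210 to 1380 CPM (log2 -1.30 ± 0.06) and Sod1 from 465 to 228 CPM (-1.04 ± 0.08), whereas the extracellular Sod3 rose (0.63 ± 0.10).

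**Figure D5:**
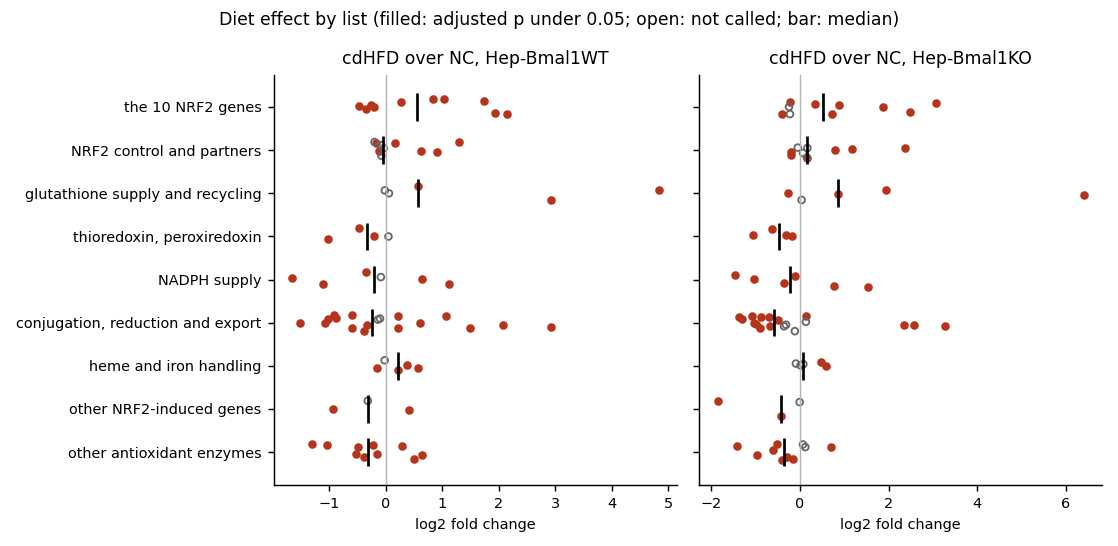
Log2 fold change of every gene in each list, cdHFD over NC, in Hep-Bmal1WT (left) and Hep-Bmal1KO (right), with called genes filled, others open and the list median as a bar. Members of the 10-gene list and of the conjugation list lie on both sides of 0, and the thioredoxin and other antioxidant lists lie mostly below it.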

How the data were processed

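The authors deposited a table of raw counts, 1 row per gene and 1 column per library, from liver BRB-seq. Per the labels, processing used STAR, HTSeq, featureCounts and DESeq2 and the mm10 build. Tool versions, and whether molecular identifiers were collapsed, are not given in the sources used here. Entries that name no gene, 22.6% to 39.9% of reads per library, were left out. All 96 columns were used, and groups came from the sample labels. Replicate numbers follow accession order, run with sex and pair no samples. P-values measure the spread of mice around the fitted model. Where sex, or a dependence of an effect on ZT, was not in the model, it adds to that spread.

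Genes with at least 100 counts over all libraries were kept and scaled by TMM. CPM and tests came from edgeR 4.0.16 (quasi-likelihood F test, Benjamini-Hochberg over all genes, threshold 0.05) in R 4.3.3. Each diet or genotype effect was fitted on the 48 libraries compared, with ZT as a factor, interactions used all 96 libraries, and sex effects had genotype by ZT groups as levels, within diet for each diet. Peak and amplitude came from a least-squares CircaCompare model with a period of 24 h on variance-stabilized values from DESeq2 1.42.0. Correlations used 100000 permutations within groups, two-sided. The scripts were tested on simulated data. Alternatives covered the test, scaling, filter on low counts, sex, left-out libraries and replicates, rhythm test and scale. Those named so in the closing section were chosen after seeing the data.

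The members and gene lists were chosen with earlier results of these data known. Beside the members, the genes named are, per list, up to 3 called in the diet effect with the largest change in Hep-Bmal1WT, Gsta2 and Gsta3, and the 5 genes most like Nqo1. Coordinates are from RefSeq, GRCm38.p6.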

Additional observations from a re-analysis of the deposited data

Results flagged for a closer look

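Within each diet, genotype and ZT group of 4 livers, the highest or lowest liver was compared with the other 3 by Dixon's gap ratio. Of 240 combinations of gene and group, 10 held an outlying liver, where chance gives about 1 in 20. Nfe2l2 was at 83.3 CPM in a male of NC Hep-Bmal1WT at ZT6 (others 57.5 to 58.9 CPM) and at 38.5 CPM in a male of the same group at ZT22 (others 53.8 to 55.5). Keap1 was at 36.8 CPM in a cdHFD Hep-Bmal1WT male at ZT6 (others 45.9 to 46.8) and at 32.1 CPM in a cdHFD Hep-Bmal1KO female at ZT14 (others 37.6 to 38.1). Hmox1 was at 35.4 CPM in an NC Hep-Bmal1WT female at ZT6 (others 19.2 to 20.6) and at 156 CPM in a cdHFD Hep-Bmal1WT male at ZT22 (others 92.2 to 99). Txnrd1 was at 100.0 CPM in a cdHFD Hep-Bmal1KO female at ZT6 (others 112 to 114). In an NC Hep-Bmal1KO female at ZT18, Srxn1 was at 48.2 CPM (others 41.6 to 42.4) and Gsta4 at 80.8 CPM (others 49.9 to 55). Gsta4 was also at 63.4 CPM in a cdHFD Hep-Bmal1WT female at ZT2 (others 86.2 to 90.7).

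The difference between males and females depended on diet for Nqo1 (log2 0.61) and Hmox1 (log2 0.74), by edgeR's test of the interaction, as given above with the replicates that end each call.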

How the results depend on the processing

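Of 1997 values of single genes under the alternatives, 1878 kept their side of the threshold, among them 51 log2 fold changes with another sign but no call under either setting, 75 lost the call and 44 gained one. No called value changed direction. No paired analysis was possible because the labels give no replicate numbers that groups share.

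Counts of members called moved as follows. In females alone the diet effect in Hep-Bmal1WT fell from 10 to 6, the genotype effect on NC from 2 to 1, the rhythms in NC Hep-Bmal1KO from 1 to 0 and in cdHFD Hep-Bmal1WT from 4 to 2, and rhythm differences were 0 between genotypes on cdHFD, 2 between diets in Hep-Bmal1WT and 0 in Hep-Bmal1KO, each from 1. In males alone the genotype effect on cdHFD fell from 4 to 1, the interaction of genotype and diet rose from 0 to 2, the NC Hep-Bmal1KO rhythms from 1 to 2, and rhythm differences were 0 between genotypes on cdHFD and 2 between diets in either genotype. Without the 7 libraries nearer the other genotype, counts were 4 for genotype on NC, 1 for genotype by diet, 4 for sex by diet and 1 for rhythm in NC Hep-Bmal1WT. Genotype by diet gave 1 with either other filter on low counts and with DESeq2. Rhythm in NC Hep-Bmal1WT gave 1 with DESeq2 size factors, with the stricter filter, with the cosinor test and at an adjusted P below 0.05, and in cdHFD Hep-Bmal1WT 2 with the cosinor test. The stricter filter left 0 rhythm differences between genotypes on cdHFD. Calls over all genes moved as well. In females alone they went from 8660 to 6557 for diet in Hep-Bmal1WT and from 1948 to 554 for genotype on NC. Their rhythm calls in cdHFD Hep-Bmal1WT, at an adjusted P below 0.05, went from 2231 to 390. In males alone genotype on cdHFD went from 1503 to 794, and genotype by diet from 473 to 467. Without the 7 libraries genotype on NC went to 2649 and genotype by diet to 919. The cause of these changes was not tested. Correlations with Nqo1 rose from 0 to 3 without the 2 farthest libraries.

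Leaving out each replicate number in turn, which removes livers mostly of 1 sex, gave 9 to 10 for diet in Hep-Bmal1WT, 8 to 9 in Hep-Bmal1KO, 1 to 3 for genotype on NC, 2 to 3 on cdHFD, 0 to 1 for genotype by diet, 2 to 5 for sex on NC, 2 to 3 on cdHFD and 0 to 2 for sex by diet. Over all genes, leaving out a replicate number gave 938 to 1624 calls for genotype on NC, from 1948, and 535 to 1382 on cdHFD, from 1503. Rhythm counts ran from 0 to 2 in each NC group, 2 to 4 in cdHFD Hep-Bmal1WT and 3 to 3 in cdHFD Hep-Bmal1KO. Rhythm differences between genotypes on cdHFD ran from 0 to 0 and between diets in Hep-Bmal1KO from 0 to 1. Phase calls ran from 3 to 4, from 5 of 6, and correlations from 0 to 2. The sex effects without the library against its sex label, and the phases and correlations without replicates or the 7 libraries, were alternatives chosen after seeing the data. The correlations centred also on sex were chosen after seeing the data too, and 0 were called. Depth limits Gsta1 in single libraries, with as few as 6 reads, and Nqo1 in general, with the lowest median count (153 reads).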
